A study of Caenorhabditis elegans with 2 samples.

Results

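The genes described here encode chromatin regulators of Caenorhabditis elegans, and the measurement is where LIR-1, a protein with zinc fingers and kin to LIN-26, was found near them. They were listed by name, with earlier results of these data known. The list took protein-coding genes called hda-, set-, met-, jmjd-, swsn-, bet-, isw-, chd-, mys- or cbp- and a number in the Ensembl annotation of WBcel235. let-418 and spat-3, which fit none of these prefixes, were added. The rule found 70 of the 19973 nuclear protein-coding genes. Chromatin immunoprecipitation and sequencing had been done on whole young adults collected at 63 hours, grown from larvae held starved at the first stage after bleaching. All animals were of strain RW12318, in which CRISPR had placed a TY1::EGFP::3xFLAG tag at the lir-1 gene itself on chromosome II, and the antibody was raised against GFP. There were 2 libraries, biological replicates 1 and 2 of 1 group, so no conditions were compared, and errors are the SD of both replicates. Libraries came from whole animals, so a site cannot be assigned to a tissue, and untagged animals were not analysed here.

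Chromatin regulators decide how open a stretch of DNA is. Methyltransferases with a SET domain write methyl marks on histones and Jumonji proteins remove them. Acetyltransferases such as CBP add acetyl groups, deacetylases take them off, and bromodomain proteins bind the acetylated tails. Remodellers of the SWI/SNF, ISWI and CHD families use ATP to move nucleosomes, and Polycomb proteins modify histones at repressed genes. In the worm many of these genes were first studied for their roles in vulval fate, germline identity and lifespan.

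A site is a peak of the set the authors named conservative, which held 1209 peaks below a limit of the IDR, the irreproducible discovery rate, between the libraries (at most 0.00997 here). It was given to a gene when its summit lay from 1000 bp upstream to 200 bp downstream of the annotated 5′ end, called the promoter window here. Peak height, called signal, is a score written by the authors' peak caller. How it was scaled is not stated, and the files hold no read totals, so depth is unknown. Coordinates are on ce11, the assembly that Ensembl calls WBcel235.

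Of the 70 chromatin regulator genes, 15 had a site in the promoter window, or 21.4% (exact binomial 95% interval 12.5 to 32.9), against 4.42% of all protein-coding genes. They were spat-3, bet-2, set-16, set-21, swsn-7, cbp-1, set-2, jmjd-1.2, set-26, hda-11, chd-7, jmjd-4, set-4, swsn-3 and swsn-6, in order of falling signal. A further 2 genes, hda-4 and jmjd-2, had a site only between 1000 and 3000 bp upstream, and set-18 had one inside the gene. The other 52 had none of these. Sites were found in each family of more than 2 genes, and in no family at all of its members except for spat-3, which stands alone. No test was made of the share, because the list was chosen with earlier results of these data known and there is 1 group.

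The share depends on how a summit is given to a gene. With a narrower window, 500 bp upstream to 100 bp downstream, 9 of the 70 genes had a site against 3.45% of all genes, and when each summit counted for its nearest 5′ end alone 9 had one against 3.15%. In the list of replicate 1 alone 12 had a site against 3.5% of all genes, and in the list of replicate 2 alone 12 had one against 2.39%. Both lists held 10 of the genes (14.3%). For all genes the share in both lists was not counted, and it cannot exceed the 2.39% of replicate 2 alone. A second thresholded set that the authors made from both libraries, called the other series set here, gave 14 against 4.14%. Among the stronger 50% of sites 13 genes had one against 2.71%.

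**Figure D1:**
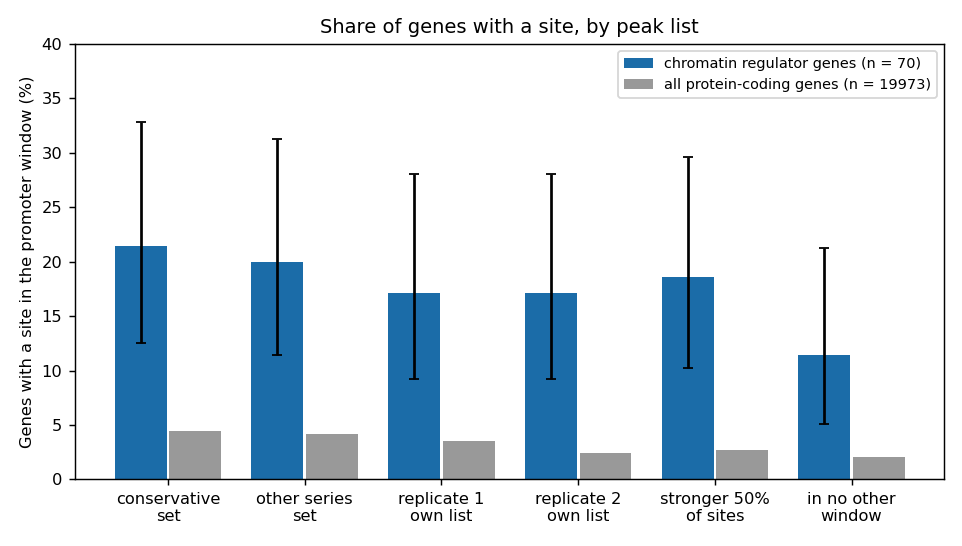
Percent of genes with a site in the promoter window for the 70 chromatin regulator genes (blue, bars with exact binomial 95% intervals) and all 19973 protein-coding genes (grey), by peak list. The chromatin regulator genes stand between 11.4% and 21.4%, and all genes between 2.02% and 4.42%.

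The 15 genes held 16 promoter sites with a median signal of 124, against 92.5 over all 664 promoter sites of the set. Of the 16, 13 (81.25%) lay above the median of all sites, 86.4, against 57.7% of all promoter sites. Signals ran from 32.9 to 351. Among the 100 strongest sites of the set were 6 of the 16, against 70 of all 664 promoter sites. The replicates' own lists, each past a threshold within 1 library, both held 10 of the 16 sites (62.5%), against 43.1% of all promoter sites. At 14 sites of 14 genes both replicates had a peak of their own in their ranked lists, the longer lists of peaks before any threshold. The ratio of replicate 1 to replicate 2 at the 14 ran from 0.632 to 1.48, and replicate 1 was the higher at 7 of them. At the 653 promoter sites of the set with both values it ran from 0.485 to 3.17, and replicate 1 was the higher at 364.

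**Figure D2:**
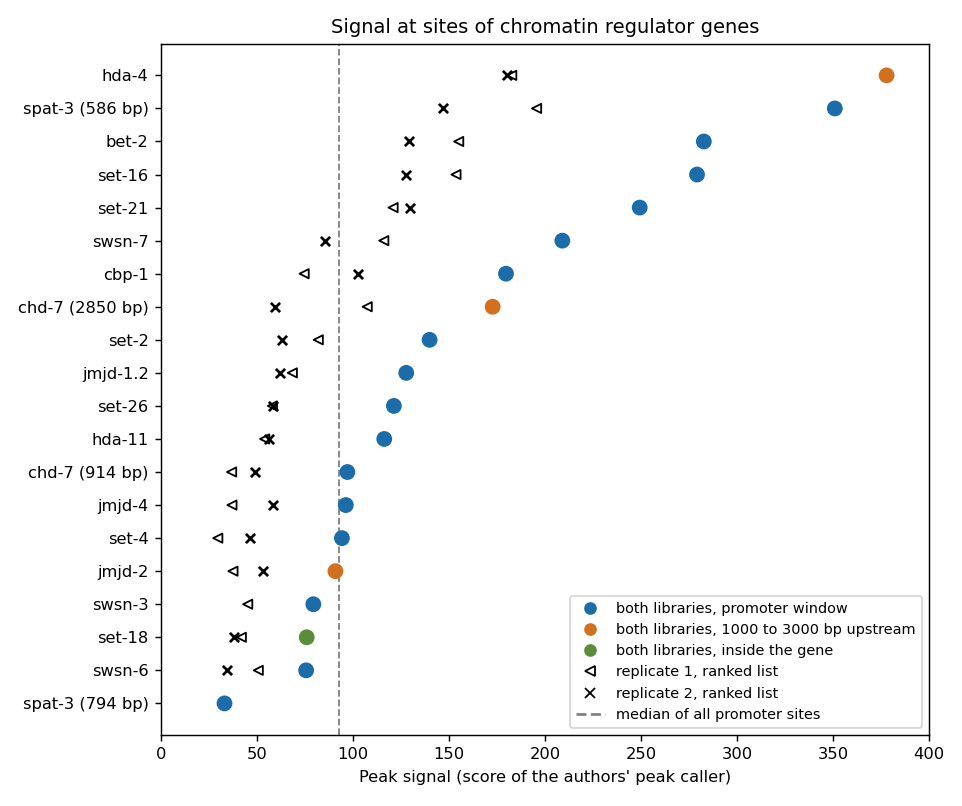
Signal, a score of the authors' peak caller, at the 20 sites of chromatin regulator genes: filled points are both libraries together, triangles replicate 1 and crosses replicate 2, and the dashed line is the median of all promoter sites (92.5). hda-4 and spat-3 lead at 378 and 351; replicate values are not drawn where a library listed no separate peak.

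Sequences under 4 of the strongest sites are shown because they hold repeats of alternating bases or stretches close to them. Each run is the summit base with 50 bases on either side, 5′ to 3′ on the strand of the named gene, read from RefSeq's copy of the WBcel235 genome. Capitals mark any match to the 10 motifs searched, which are spelled out further on.
spat-3, chrX:4606464-4606564, minus strand: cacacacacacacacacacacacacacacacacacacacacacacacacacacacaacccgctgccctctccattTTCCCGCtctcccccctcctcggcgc
bet-2, chrX:10568557-10568657, plus strand: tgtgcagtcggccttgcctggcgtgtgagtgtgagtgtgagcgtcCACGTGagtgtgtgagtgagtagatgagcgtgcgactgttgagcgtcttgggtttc
swsn-7, chrII:8028432-8028532, minus strand: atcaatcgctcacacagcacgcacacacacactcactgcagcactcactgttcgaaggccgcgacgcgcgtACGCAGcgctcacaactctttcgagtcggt
hda-4, chrX:16726970-16727070, plus strand: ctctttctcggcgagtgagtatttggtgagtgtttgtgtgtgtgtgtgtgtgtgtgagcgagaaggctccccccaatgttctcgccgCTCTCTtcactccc
The spat-3 window began with 56 bases of unbroken CA repeat, the hda-4 window held 22 bases of TG repeat and the swsn-7 window 11 bases of CA repeat. In bet-2 the longest such run was 7 bases, within a stretch rich in GTGAG. A CA or TG run of 10 bases or more, a length chosen after the sequences were seen, stood in 3 of the 20 windows at chromatin regulator genes, in 3.36% of the 1189 windows at other sites and in 0.300% of 19973 promoters of protein-coding genes. How reads from repeats were placed is not stated, and the part of repeats in these signals was not tested.

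The Polycomb-like gene is described first. spat-3 encodes a RING protein that works with MIG-32 in ubiquitylation of histone H2A. Its site on X at 4606422 to 4606612 lay 586 bp upstream and ranked 8 of 1209 by signal. Replicate 1 had a signal of 195.6 there and replicate 2 had 147, a mean of 171 ± 34.4 (SD, n = 2). The 2 libraries together gave 351, the highest of any promoter site at a chromatin regulator gene. The summit lay 2 bp inside the noncoding RNA gene T13H2.9 and within another, T13H2.7. A second site of spat-3, at 4606582 to 4606861 and 794 bp upstream, overlapped the first and had a signal of 32.9, the lowest of the 20. Replicate 2's ranked list held no peak at it, and the only peak of replicate 1 there was the one of the first site.

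Among the 31 SET-domain methyltransferase genes, 5 had a promoter site (16.1%, exact interval 5.45 to 33.7), against 4.42% of all genes, which were set-16, set-21, set-2, set-26 and set-4. set-16 encodes the worm member of the MLL family that methylates lysine 4 of histone H3. Its site on III at 13643644 to 13643774, 184 bp upstream, had a signal of 279. Replicates 1 and 2 gave 154 and 128 there (141 ± 18.4, SD, n = 2). The summit also lay 162 bp upstream of drr-2, which runs the other way. set-2, the worm SET1 gene and the other well-known lysine 4 enzyme, had its site on III at 4930294 to 4930573, 230 bp upstream. It had a signal of 139.8, with 81.8 in replicate 1 and 62.7 in replicate 2 (72.3 ± 13.5). Of these sites, the one at set-16 thus had the higher value in both replicates, but it lay nearer to drr-2 and cannot be given to set-16 alone.

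At set-21 the site on IV at 4390524 to 4390803 had a signal of 249, with 121 and 129.7 in replicates 1 and 2 (125 ± 6.34, SD, n = 2). It lay 180 bp upstream of set-21 and 74 bp upstream of rpl-7A, a ribosomal protein gene on the other strand, so it cannot be given to either by place. The set-26 site on IV at 16656288 to 16656567 had a signal of 121, with 57.9 and 58.03 in the replicates (58.0 ± 0.0938), the closest pair of values at any site with both. set-26 encodes a PHD and SET protein with a known effect on lifespan. Its site lay 545 bp upstream of set-26 but 185 bp upstream of tsr-2. set-9, its close relative in sequence, had no site, and the stronger of 2 ranked peaks in its window reached a signal of 25.4 at an IDR of 0.866. set-4, which encodes the H4 lysine 20 methyltransferase that acts in X dosage compensation, had a weaker site on II at 6331446 to 6331725, 245 bp upstream. Its signal was 94.1, with 29.4 in replicate 1 and 46.0 in replicate 2 (37.7 ± 11.7), and replicate 1's own list did not hold it.

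Windows of set-16, set-26 and set-4 are shown because they carry the motifs that recurred at sites.
set-16, chrIII:13643682-13643782, plus strand: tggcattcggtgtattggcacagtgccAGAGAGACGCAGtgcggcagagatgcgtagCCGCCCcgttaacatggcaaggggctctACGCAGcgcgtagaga
set-26, chrIV:16656378-16656478, minus strand: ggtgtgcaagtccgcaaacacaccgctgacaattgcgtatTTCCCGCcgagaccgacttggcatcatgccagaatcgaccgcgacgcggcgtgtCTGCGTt
set-4, chrII:6331536-6331636, minus strand: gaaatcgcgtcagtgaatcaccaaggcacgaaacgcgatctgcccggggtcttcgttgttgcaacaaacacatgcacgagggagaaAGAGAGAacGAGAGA
The set-16 window held 2 matches to ACGCAG and set-26 held 1, read on the other strand as CTGCGT, beside a match to TTCCCGC. set-4 had GAGAGA near the downstream end of its window, in a purine-rich stretch.

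set-18, a SMYD-family gene, had a site inside the gene on I at 10593061 to 10593340, in an intron and 2498 bp downstream of the 5′ end. The summit there lay in a tRNA gene, WBGene00014525, and in the noncoding RNA gene T22A3.11, both nested in set-18. Its signal of 75.8 (41.7 and 37.9 in replicates 1 and 2, 39.8 ± 2.70, SD, n = 2) was in the lower part of the set, at rank 806. It was the 1 gene of 70 with a site inside it (1.43%, exact interval 0.0362 to 7.70), against 1.4% of all genes. The remaining 25 SET-domain genes had no site, and for 18 of them the promoter window held no ranked peak at all, as it did for 65% of all protein-coding genes without any site. Neither of the MET methyltransferase genes had a site. met-1, which encodes a lysine 36 enzyme, had a ranked peak 10 bp inside the gene whose signal was 60.6 at an IDR of 0.0153, and met-2, a lysine 9 enzyme gene, had none.

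Of the 8 Jumonji genes, 2 had a promoter site (25%, exact interval 3.19 to 65.1), against 4.42% of all genes. A site further upstream was found at 1 of the 8, against 2.67% of all genes. jmjd-1.2 encodes a demethylase of histone H3 that is known in the worm for its part in the mitochondrial stress response. Its site on IV at 4660378 to 4660657, 473 bp upstream, had a signal of 128, with 68.3 and 61.6 in replicates 1 and 2 (65.0 ± 4.69, SD, n = 2). The same summit lay 317 bp upstream of F29B9.11 on the other strand. jmjd-4 had a site on III at 10334025 to 10334304, 147 bp upstream, with a signal of 96.2. Its replicates differed more, at 36.8 and 58.3 (47.5 ± 15.2), and the summit lay nearer to mev-1, a succinate dehydrogenase gene, at 112 bp. jmjd-2, whose product removes methyl groups from lysines 9 and 36 of histone H3, had no promoter site. It had one on II at 14244928 to 14245207, 1465 bp upstream, with a signal of 90.7 (37.3 and 53.1, 45.2 ± 11.1), and no other protein-coding gene had its 5′ end nearer.

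Of the 8 histone deacetylase genes, hda-11 alone had a promoter site (12.5%, exact interval 0.316 to 52.7), against 4.42% of all genes. hda-1, hda-2 and hda-3, the class I genes, had none and had no ranked peak in the window either. The hda-11 site lay on V at 10525970 to 10526249 and 74 bp upstream, the nearest of all 16. Its signal was 116, with 53.9 and 56.0 in replicates 1 and 2 (54.9 ± 1.49, SD, n = 2), and C35A5.8, on the other strand, shared it. hda-4, the class IIa gene that acts in sensory neurons and muscle, had the strongest site of any chromatin regulator gene but far upstream. That site, on X at 16726907 to 16727140, lay 2539 bp from the 5′ end with a signal of 378 and ranked 5 of 1209. Replicates 1 and 2 gave 182.6 and 180.2 (181 ± 1.69), and no 5′ end of another protein-coding gene was nearer. No ranked peak lay in the hda-4 promoter window itself.

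Among the 6 acetyltransferase genes of the mys- and cbp- families only cbp-1 had a promoter site (16.7%, exact interval 0.421 to 64.1), against 4.42% of all genes. cbp-1 encodes the worm CBP/p300 enzyme. The site on III at 9765492 to 9765771 lay 877 bp upstream and had a signal of 179.6, with 74.4 in replicate 1 and 102.6 in replicate 2 (88.5 ± 19.9, SD, n = 2). cbp-2 and cbp-3, near it on the same chromosome, had none, and neither did mys-1, the Tip60 gene. Of the pair of bromodomain genes, bet-2 had a site and bet-1, which maintains cell fates, had none. The bet-2 site on X at 10568486 to 10568712, 666 bp upstream, ranked 18 with a signal of 283 (155 and 129.0 in replicates 1 and 2, 142 ± 18.4). In the bet-1 window the only ranked peak reached a signal of 51.1 at an IDR of 0.0903.

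Of the 7 SWI/SNF subunit genes, 3 had a promoter site (42.9%, exact interval 9.90 to 81.6), against 4.42% of all genes. In the other series set and among the stronger 50% of sites swsn-7 alone had one, 1 of 7 (14.3%), against 4.14% and 2.71% of all genes. swsn-7, which encodes the ARID2-like subunit of the PBAF form, had its site on II at 8028342 to 8028621, 719 bp upstream, with a signal of 209. Replicate 1 gave 116 and replicate 2 gave 85.2 (100.6 ± 21.8, SD, n = 2). The summit lay in an exon of the noncoding RNA gene C08B11.11. hda-2 lies 70 bp downstream of swsn-7 on the same strand, and most of its own promoter window falls inside swsn-7. swsn-3, the BAF57-like subunit gene, had a signal of 79.2 on III at 2768733 to 2769012, 194 bp upstream, in an intron of cox-6B. There replicate 1 had 45.0 and replicate 2's ranked list held no overlapping peak. Between the libraries this site had an IDR of 0.00187, so the missing entry does not show that replicate 2 lacked signal there. swsn-6, which encodes an actin-related subunit, had 75.5 on IV at 5394762 to 5395041, 131 bp upstream and 98 bp upstream of perm-3, with 50.5 and 34.2 in replicates 1 and 2 (42.3 ± 11.6). Neither the swsn-3 nor the swsn-6 site was in replicate 2's own list or in the other series set. swsn-4, the ATPase gene of the complex, had no site, and the ranked peak in its window reached 21.2 at an IDR of 0.866. That of swsn-1, a core subunit gene, was stronger, 58.2 with an IDR of 0.0141, and lay 467 bp upstream.

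In the ISWI and CHD families, 1 of 5 genes had a promoter site (20%, exact interval 0.505 to 71.6), against 4.42% of all genes. It was chd-7, the worm relative of human CHD7, which had a pair of sites. One lay on I at 4699349 to 4699628, 914 bp upstream, with a signal of 97.0 (36.6 and 48.6 in replicates 1 and 2, 42.6 ± 8.50, SD, n = 2), and was in neither replicate's own list. Its summit was nearer to the long noncoding RNA gene linc-91, 121 bp upstream of the 5′ end of that gene. The other site, at 4701285 to 4701564 and 2850 bp upstream of chd-7, was stronger, with a signal of 173. Its replicates were far apart, at 107 and 59.0 (83.2 ± 34.1), and its summit lay inside linc-91. The Mi-2 genes let-418 and chd-3 had no site, and the ranked peaks in their windows had signals of 35.2 and 27.3. Over all chromatin regulator genes, 3 of 70 (4.29%, exact interval 0.893 to 12.02) had a site between 1000 and 3000 bp upstream, against 2.67% of all genes, which lies within that interval.

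**Figure D3:**
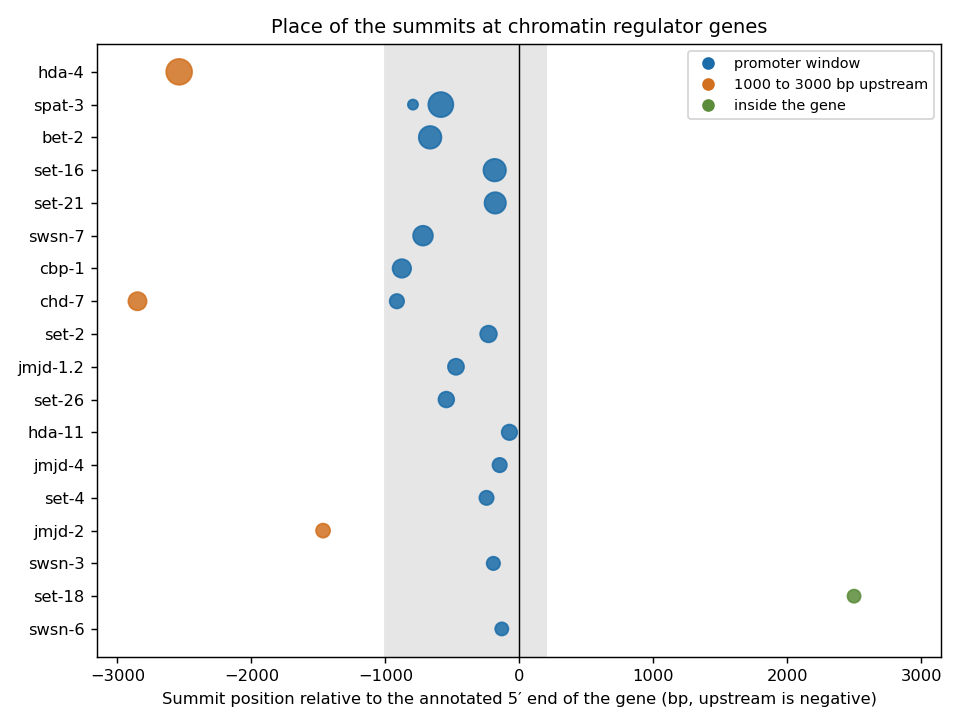
Position of the 20 summits relative to the annotated 5′ end of each gene in bp, with upstream negative, the promoter window shaded and point area growing with signal. The 16 promoter summits all lie upstream, from 74 to 914 bp, as does most of the window. Sites of hda-4, jmjd-2 and chd-7 lie further out and set-18 has one inside the gene.

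All 16 promoter summits lay upstream of the 5′ end. Most of the promoter window, 1000 bp upstream to 200 bp downstream, is itself upstream, and the share of all promoter sites lying upstream was not counted. Taking the strongest site of each gene, the median was 245 bp upstream of that gene's own 5′ end. For all promoter sites the median was 212 bp, but measured to the nearest protein-coding 5′ end, which is not a like measure. Annotated 5′ ends in C. elegans are often ends of trans-spliced messages, which hides where transcription starts. At 7 of the 16 sites (43.8%) the summit also lay in the promoter window of another protein-coding gene, against 36.7% of all promoter sites. Those 7 belonged to set-16, set-21, jmjd-1.2, set-26, hda-11, jmjd-4 and swsn-6, and at 6 of them the other gene's 5′ end was the nearer, the exception being hda-11. Without shared summits 8 of 70 genes had a site (11.4%, exact interval 5.06 to 21.3), against 2.02% of all genes.

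Sites were also counted by the layout of the upstream neighbour. Of the 12 whose upstream neighbour ran the other way within 1000 bp, 7 had a site, against 11.4% of the 3435 protein-coding genes so placed. They are the same 7 genes whose summit also lay in the promoter window of that neighbour. None of these sites can be given to the chromatin regulator gene alone, and at all but hda-11 the neighbour's 5′ end was the nearer. Of the 18 whose upstream neighbour ran the same way within 500 bp, as in operons, 2 had one, set-2 and set-4, against 3.2% of 3531. In the remaining groups it was 1 of the 3 genes whose 5′ end lay inside another gene, swsn-3, against 2.8%, and 5 of 37 others against 2.94%. The counts are small, and the difference between layouts was not tested.

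Below the threshold, the ranked list that compares the libraries held 36486 peaks with a median signal of 28.4. Of the 52 genes without any site, 23 had at least 1 such peak in the promoter window, or 44.2% (exact interval 30.5 to 58.7), against 35% of the 18383 protein-coding genes without any site. The interval covers the share of all such genes. The strongest was at isw-1, the ISWI ATPase gene, 66 bp upstream, whose signal was 72.7 at an IDR of 0.0130. In the ranked lists of the replicates it had 43.0 and 27.6. hda-6, a class IIb deacetylase gene, had 66.9 with an IDR of 0.0121 (26.8 and 36.0), 22 bp inside the gene, and passed in the other series set. met-1 (60.6), swsn-1 (58.2) and set-30 (55.5, with an IDR of 0.0251) followed. On the inner side of the threshold, the promoter site with the highest IDR was that of set-4, at 0.00378. The remaining 29 of the 52 (55.8%) had no ranked peak in the window, against 65% of the protein-coding genes without any site.

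**Figure D4:**
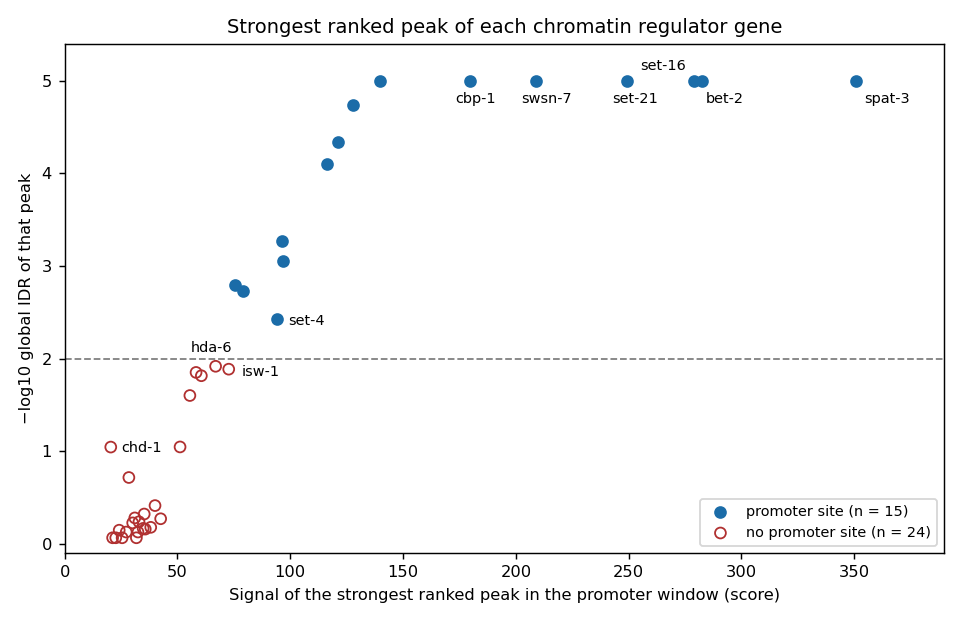
Signal of the strongest ranked peak in the promoter window (x axis, a score) against −log10 of its global IDR (y axis) for the 39 chromatin regulator genes that had one. The 15 genes with a site (filled) lie above the dashed line at 2, and the 24 without a promoter site (open) lie below it, with hda-6 and isw-1 next to it.

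The windows at the 20 sites were rich in G and C. Their median was 53.0% G and C, from 35.6% at swsn-3 to 60.4% at set-16. Windows at the 1189 other sites had 48.5%, windows 500 bp to either side of those 36.6% and protein-coding promoters 33.7%. CG dinucleotides followed the same order, with medians of 9, 7, 3 and 3 per window. The medians at chromatin regulator genes were nearer to those of other sites than to those of promoters. All these windows were picked as summits of the same set, so that likeness says nothing about the genes themselves.

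**Figure D5:**
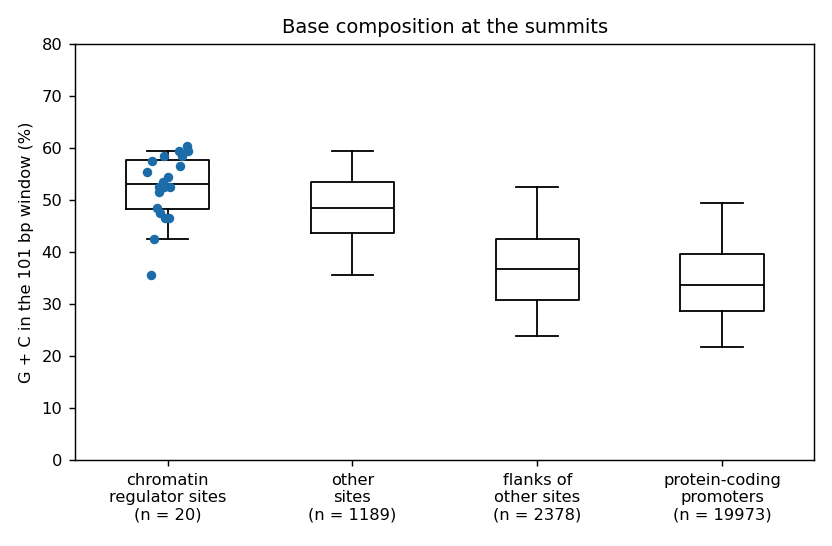
Percent G and C in windows of 50 bases to either side of a summit: 20 sites of chromatin regulator genes (points), other sites, flanks 500 bp from those, and protein-coding promoters; boxes are quartiles with the median and whiskers run from the 5th to the 95th percentile. All but swsn-3 of the chromatin regulator windows lie above 42%.

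The 10 motifs searched, on both strands, are named here one by one with their shares. ACGCAG was taken up, as was the motif AGAGAG, because both led the 6-mers at other sites, with GAGAGA, by their excess over flanks. GAGAGA overlaps the motif AGAGAG. Matches to GAGAGA stood in 5 of the 20 windows (25%), against 20.2% at other sites, 6.39% in flanks and 7.12% in promoters, and the windows with it belonged to set-16, cbp-1, set-4 and both sites of chd-7. ACGCAG stood in 3 windows, those of set-16, swsn-7 and set-26, which is 15%, against 15.7% at other sites, 2.44% in flanks and 2.77% in promoters. AGAGAG stood in 5 of 20, against 18% at other sites and 5.82% in promoters. TTCCCGC, the core of E2F sites, stood in the windows of spat-3 and set-26 (2 of 20, with 4.04% at other sites and 1.22% in promoters). The E-box CACGTG stood in those of bet-2 and swsn-3 (2 of 20, with 5.47% and 1.55%). GGTTCGA, part of the tRNA promoter, stood only in the set-18 window, where the tRNA gene lies, with 5.80% at other sites and 0.486% in promoters. GGGCGG stood in 2 (set-16 and set-18), with 6.06% and 2.29%, and TTTGAA in 2 (set-21 and jmjd-4), with 16.3% and 29.9%. TATAAA and GATAAG were in none of the 20, with 4.04% and 3.53% at other sites and 13.2% and 4.79% in promoters. A motif with no match is only absent from these windows, and few windows lie behind each share.

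Other chromatin genes outside the naming rule were counted in the same way. Of 58 listed by role, 10 had a promoter site (17.2%, exact interval 8.59 to 29.4), against 4.42% of all genes. Genes of acetyltransferase complexes had 2 of 6, epc-1, the Enhancer of Polycomb gene (signal 229.7), and hat-1 (160.2). Deacetylase complex and sirtuin genes had 2 of 11, lin-53, a histone chaperone gene (204), and mep-1, a partner of LET-418 (135). Polycomb and MES genes had 2 of 7, sor-1 (102) and mes-2, the Enhancer of zeste gene (73.3). The histone H2A.Z gene htz-1 had one (169), as did rbr-2, the lysine 4 demethylase gene (115.2), wdr-5.3, a gene of the WDR-5 family (69.9), and dot-1.1, a lysine 79 methyltransferase gene (62.6). None of 7 heterochromatin protein genes and none of 5 further SWI/SNF genes had a promoter site, and a count of 0 leaves exact intervals of up to 41.0% and 52.2%. Sites between 1000 and 3000 bp upstream were found at 5 of the 58, against 2.67% of all genes, and 2 of these, lin-13 and cec-4, are among the 7 heterochromatin genes. The others were mep-1, rba-1 and the SWI/SNF gene pbrm-1. Sites inside the gene were found at 3 of the 58, against 1.4% of all genes, which were let-526, another of the SWI/SNF genes, ash-2 and dot-1.1.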

How the data were processed

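LIR-1 chromatin immunoprecipitation was measured in 2 libraries of 1 group. The deposited files are peak lists on ce11, per the labels. Per the manifests deposited with the samples, the authors made each list from filtered alignments and a control alignment, and pooled both libraries for the series lists. Peak height is a score that the authors deposited, and column 12 of the deposited ranked lists was read as −log10 of the global IDR. No header or label names that column. In the list that compares the libraries, all 36486 peaks had a column 5 within 2 units of the score that the IDR format derives from the global IDR. The sources used here name no aligner or peak caller and give no depth. No nuclear peak ran past a chromosome end of the reference, and 30 mitochondrial peaks over all lists lay in no window used. Genes are from Ensembl release 115.

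Summits were placed in promoter windows with Python 3.11.15, pandas 2.3.3 and numpy 2.4.6. Exact binomial (Clopper-Pearson) intervals, from scipy 1.17.1, treat genes as independent, which neighbours are not, and cover counting error only. A replicate's value is the signal of the ranked peak that overlaps the site by 1 bp or more with the nearest summit. Window placement was tested on simulated summits. The members and lists were chosen with earlier results of these data known, and no set test was made. The text names every member with a site, the 5 members with the strongest peaks below the threshold, and listed relatives with a promoter site. Other genes were named after their values were seen. Sequence of chromosome I is not printed. Alternatives were other peak lists, thresholds, windows, 5′ ends and assignment rules.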

Additional observations from a re-analysis of the deposited data

How the results depend on the processing

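The 15 genes with a promoter site became 9 with the narrower window (without bet-2, cbp-1, chd-7, set-26, spat-3 and swsn-7), 9 by nearest 5′ end and 8 without shared summits, an alternative chosen after seeing the data. They stayed between 12 and 15 under the other alternatives. Leaving out a replicate gave 12 each way. The share of all genes, 4.42%, was 2.71% among the stronger 50% of sites and 2.02% without shared summits, and ran from 2.39% to 3.505% when a replicate was left out. The upstream sites numbered 3 to 4. The inside site of set-18 was absent (0) among the stronger 50% of sites and 0 to 1 genes had one when a replicate was left out. The median signal lay between 116 and 128 with a stricter IDR limit, the narrower window, the nearest 5′ end or overlapping peaks merged. It was not taken again for the stronger 50% of sites, the other series set or single replicates. The other series set lost swsn-3 and swsn-6 and gained hda-6. No paired analysis was possible because there is 1 group. With 2 libraries of unknown depth, a missing peak does not show that LIR-1 was absent.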
